A study of Drosophila melanogaster with 2 samples.

Results

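Autosomal Adf1-GFP peaks at internal alternative start sites were described here: 458 peak summits of the 4370 in the list of peaks repeated across both replicates. A summit was taken where it lay off the X chromosome, within 500 bp of an annotated transcription start of a protein-coding gene, and where the nearest start was more than 1000 bp downstream of the outermost 5′ start of the same gene. That outermost start is called the first start below, and any start more than 1000 bp downstream of it an internal start. The 458 summits lay in 432 peak intervals, at 403 start sites of 336 genes, and 13 of them were equally near to starts of different genes and counted once. The comparison set was 1582 autosomal summits whose nearest start was the first start of a gene or within 1000 bp of it. These lay in 1455 genes and are called first-start peaks. Most autosomal first starts with a summit within 500 bp were of genes without an internal start, 1563 against 332 of genes with one. A contrast with first-start peaks thus also sets different kinds of gene side by side. The part this plays in the differences below was not tested.

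The study mapped the DNA bound by Adf1 in whole Drosophila melanogaster embryos of 0 to 24 h by chromatin immunoprecipitation and sequencing (ChIP-seq). There was 1 group, of 2 biological replicates, in which transgenic flies of the Adf1-GFP strain expressed Adf1 fused to enhanced green fluorescent protein; the precipitation used an antibody to the tag, while the antibody field of the labels names Adf1. Chromatin had been sonicated to 200 to 800 bp, so a summit is placed less sharply than the base pairs printed below. The collection mixes every tissue and every stage of embryogenesis, so a peak may come from few of the cells, no control sample was analysed here, and a summit says nothing of whether the start beside it was in use.

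Adf1 binds DNA through a MADF domain and was first described as a factor acting on a promoter of Adh. Many fly genes are read from several promoters, and an internal promoter, usually inside an intron of the longer transcripts, can give an RNA with another first exon and, in some genes, a protein with another amino terminus. Early ecdysone response genes are textbook cases: Eip75B and Eip74EF each make several protein forms from nested promoters.

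The DNA at the strongest of these summits is shown first, because some of the windows hold the words counted below; most summit windows held neither. Each line gives 61 bases centred on a summit, 5′ to 3′ on the strand of the gene, from the RefSeq assembly of Release 6 of the genome. The windows shown are the 8 of highest signal, 1 per gene, that overlap no annotated exon on chromosome arms 2L, 3L and 3R. Capitals mark 9-base words that match either of the motifs counted below, on either strand: TCGNNNTCG, or 3 triplets in a row drawn from GCC, GCT and GTC.
Svil, chr3L:2457769-2457829 (+ strand): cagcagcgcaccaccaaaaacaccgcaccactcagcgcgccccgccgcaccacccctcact
Eip78C, chr3L:21240251-21240311 (+ strand): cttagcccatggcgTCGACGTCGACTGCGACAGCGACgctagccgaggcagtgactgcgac
ftz-f1, chr3L:18765788-18765848 (- strand): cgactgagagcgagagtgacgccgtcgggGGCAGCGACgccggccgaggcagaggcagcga
rdx, chr3R:13983385-13983445 (- strand): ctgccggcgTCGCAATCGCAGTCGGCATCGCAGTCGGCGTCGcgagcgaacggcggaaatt
aop, chr2L:2161631-2161691 (- strand): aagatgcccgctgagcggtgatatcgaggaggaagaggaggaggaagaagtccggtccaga
Tet, chr3L:2821182-2821242 (- strand): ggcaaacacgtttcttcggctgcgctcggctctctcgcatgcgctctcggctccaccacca
atl, chr3R:24630174-24630234 (+ strand): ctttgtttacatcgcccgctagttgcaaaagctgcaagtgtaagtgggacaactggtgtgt
fru, chr3R:18439231-18439291 (- strand): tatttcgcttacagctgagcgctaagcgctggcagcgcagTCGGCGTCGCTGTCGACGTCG
Capitals ran through the Eip78C, rdx and fru windows, where TCG or its reverse complement CGA recurred at steps of 6 bases, and through a shorter stretch at ftz-f1. The Tet window held 3 matches to GAGAG. The windows of Svil, aop and atl held no match to any of these motifs within 61 bases, although within 50 bases of the summit Svil held both the triplet row and TCGNNNTCG, aop the triplet row and atl GAGAG.

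Signals at internal starts were high for the list. The signal came from the authors' peak caller, on a scale that no source used here states, so it serves here for order and description inside a list. The median was 189 at internal start peaks (interquartile range 118 to 378, highest 3485), and 143 at first-start peaks (106 to 238, highest 3544). The whole list had a median of 150.6, and 60.7% of internal start peaks (95% interval 56.2 to 65.1%) lay above it, against 46.1% of first-start peaks (43.7 to 48.6%). Intervals here and below are Wilson intervals for counting error alone; peaks are not replicates, and 56 internal start summits shared a peak interval with another summit. The order held in each replicate's own ranked list, with medians of 72.9 and 57.5 in replicate 1 and of 127 and 90.1 in replicate 2, each time for internal start peaks and then first-start peaks.

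Actin-associated genes supplied both of the strongest members. The highest signal, 3485, was at Svil, which encodes a supervillin-type actin-binding protein; it was 1250 in replicate 1 and 2252 in replicate 2. The summit lay 104 bp upstream of a start 80.2 kb inside the gene, the start of Svil-RJ and Svil-RX, at chr3L:2457512-2458193. Svil has 16 annotated starts, and 3 of them, at 51.3, 80.2 and 116.9 kb, had a summit, while the first start had none. CAP, which encodes an SH3-domain adaptor found at muscle attachment sites, followed with 2642 (756 in replicate 1 and 1879 in replicate 2), 181 bp upstream of a start 2.87 kb inside the gene. CAP held 3 further peaks, with signals of 653, 528 and 507, and none at its first start.

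After CAP came px, a wing vein patterning gene, with 2467 (702 in replicate 1 and 1763 in replicate 2), and the nuclear receptor genes Eip78C, ftz-f1 and Hr3 with 2432, 2266 and 2163. rdx encodes a BTB adaptor for degradation of the Hedgehog pathway factor Ci and had 2147 (591 in replicate 1 and 1580 in replicate 2). apt, which encodes a DNA-binding regulator of tracheal and border cells, had 2050 (727 in replicate 1 and 1325 in replicate 2). The chromatin gene tou had 1956 (653 in replicate 1 and 1316 in replicate 2), and the ecdysone-induced Eip75B 1878 (646 in replicate 1 and 1226 in replicate 2). aop, the Ets-domain repressor also called Yan, had 1873 (755 in replicate 1 and 1128 in replicate 2). Tet, whose product belongs to the family of methylcytosine dioxygenases, had 1844 (626 in replicate 1 and 1221 in replicate 2). All 12 of these strongest members were in both replicates' own thresholded lists.

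**Figure D1:**
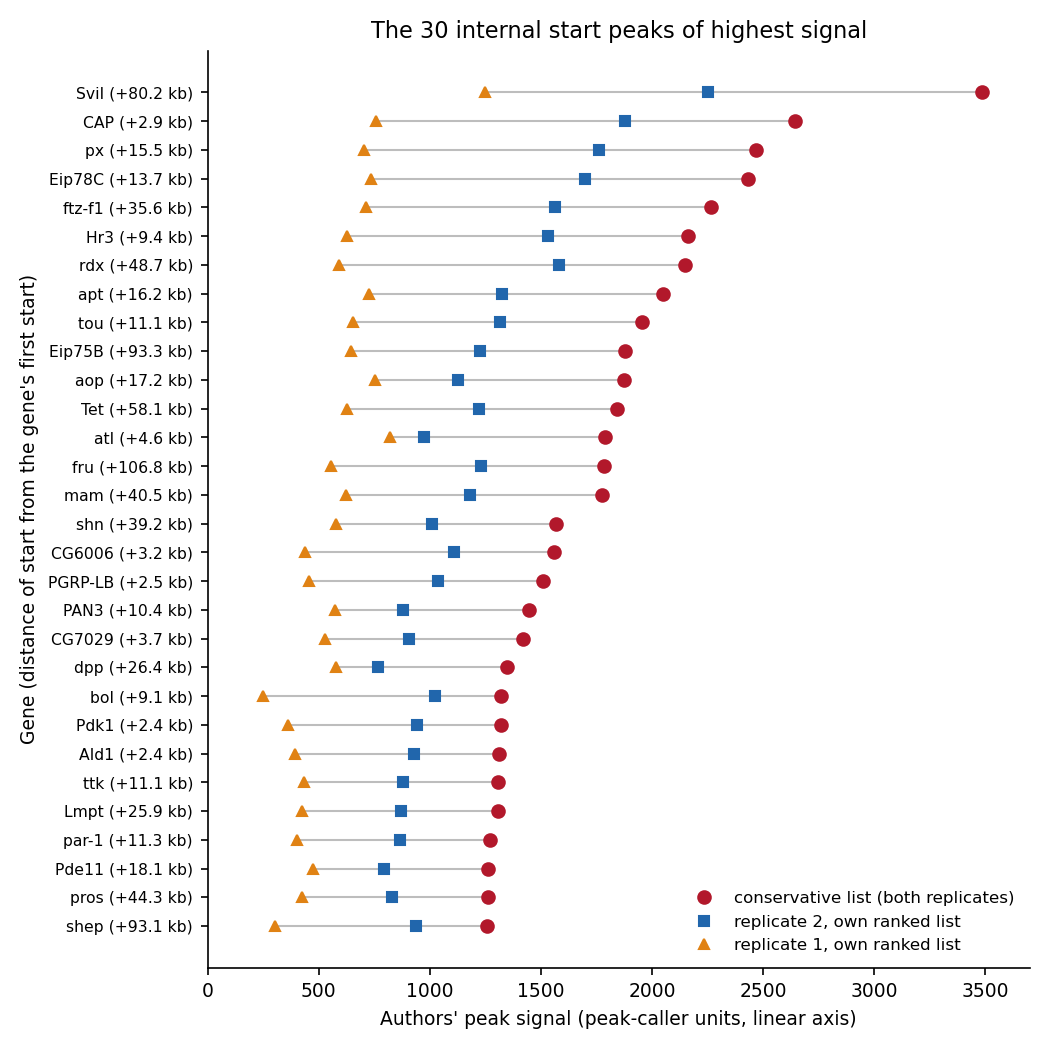
Authors' peak signal (horizontal, linear axis) of the 30 internal start peaks with the highest signal (vertical, gene and distance of the start from the gene's first start). Circles give the list of both replicates, squares replicate 2 and triangles replicate 1, each from its own ranked list on its own scale; Svil stands at the top with 3485, 2252 and 1250, and in all 30 the replicate 1 value was the lowest of the 3.

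Replicates differed in how many members they called alone. Of the 458 summits, 438 (95.6%, 93.4 to 97.2%) overlapped a peak of replicate 2's own list and 350 (76.4%, 72.3 to 80.1%) one of replicate 1's. For first-start peaks these shares were 91.0% and 67.3%. Both lists held 342 members (74.7%), only replicate 2's 96, only replicate 1's 8, and neither list 12. Replicate 2's own list was also the longer, with 6003 peaks against 3127, and read depth is unknown because the lists hold no counts. Over the 456 members found in both ranked lists, Spearman's rho of the replicate signals was 0.74, given as a description; summits within 1 interval can share a replicate peak, as at svp. The nearest replicate summit lay a median 20 bp away in replicate 1 and 6 bp in replicate 2.

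Summits sat mostly just upstream of the internal start. Of the 458, 355 (77.5%, 73.5 to 81.1%) were upstream, against 1104 of 1582 (69.8%, 67.5 to 72.0%) at first starts. The median position was 92 bp upstream (interquartile range 195 to 9 bp upstream) at internal starts, and 62 bp upstream (130 bp upstream to 18 bp downstream) at first starts. Summits within 100 bp of the start made up 43.9% at internal starts and 52.7% at first starts, so internal start summits were the more spread out. Positions are to the nearest start of any gene. Another gene's start lay within 1000 bp of 41.5% of first-start peaks and 9.17% of internal start peaks, and its part in these differences was not tested. Members farther off included fru, with its strongest summit 490 bp upstream of the start of fru-RM, and hth, a homeobox gene, 418 bp upstream. Near the edge of the rule, the 26 summits over 400 and up to 500 bp away had a median signal of 163 and the 15 over 500 and up to 600 bp away, which were not members, 186.

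**Figure D2:**
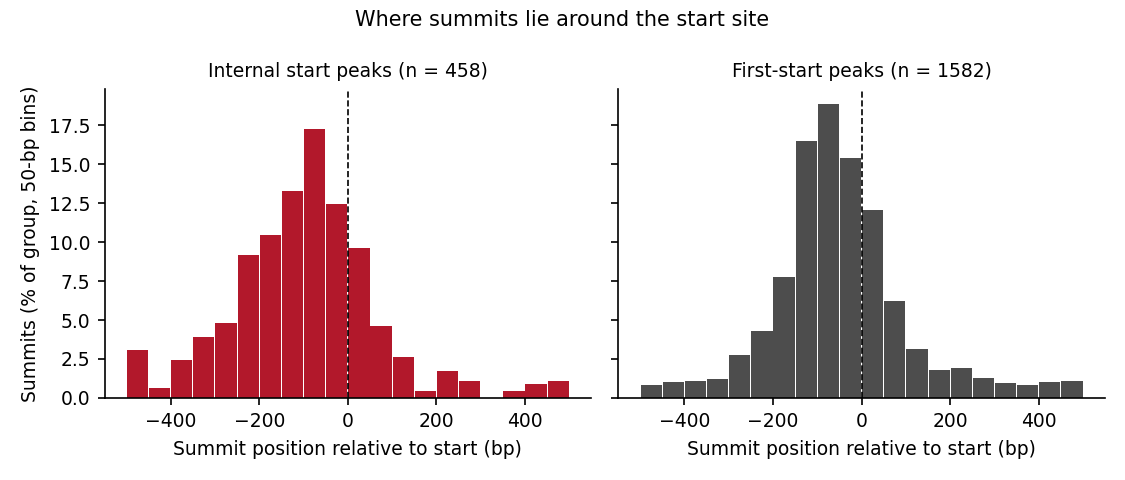
Share of summits (vertical, percent of each group in 50-bp bins) by position relative to the start (horizontal, bp; negative is upstream, dashed line the start) for the 458 internal start peaks (left) and the 1582 first-start peaks (right). Both peak within 100 bp upstream of the start, and the left tail is heavier at internal starts, whose median was 92 bp upstream against 62 bp.

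The starts themselves reached deep into their genes. The distance from the first start had a median of 8.32 kb and quartiles of 2.52 and 22.3 kb, and 200 summits (43.7%) were more than 10 kb in; over all 2383 autosomal internal starts, bound or not, the median was 4.84 kb and 33.2% were more than 10 kb in. Distances over 1000 bp are set by how the members were chosen. The farthest, 138.9 kb inside sick, had a modest signal of 143 (33.0 in replicate 1 and 112 in replicate 2) and was absent from replicate 1's own list. Next came the 116.9 kb start of Svil and the 106.8 kb start of fru. Of the 403 start sites, 354 (87.8%, 84.3 to 90.7%) lay in an intron of other transcripts of the gene and 49 in an exon, and of all autosomal internal starts 83.6% (82.01 to 85.0%) lay in an intron. At 239 (59.3%, 54.4 to 64.0%) none of the transcripts shared the annotated protein start of a transcript from within 1000 bp of the first start, as at Svil, CAP and Eip75B, and at 164 at least 1 did, as at apt, aop and fru; over all autosomal internal starts the share with no shared protein start was 53.7% (51.7 to 55.7%). At the near edge of the rule, the 53 summits whose start was over 1000 and up to 1500 bp from the first had a median signal of 156, and the 76 at over 500 and up to 1000 bp, which were not members, 160.

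Set against all annotated starts, the share with a peak was lower for internal starts than for the first starts of the genes that have them. A summit lay within 500 bp of 464 of 2383 autosomal internal starts (19.5%, 17.9 to 21.1%). The same held for 332 of 1407 first starts of the genes that have one (23.6%, 21.5 to 25.9%). In these counts a summit counts at every start within 500 bp of it, of any gene, as at the close starts of Pde8. Starts are therefore not independent. These intervals do not overlap, but they hold counting error alone and cannot decide whether the shares differ. First starts of the 10342 autosomal genes without an internal start were bound at 15.1% (14.4 to 15.8%). With only summits above the median signal of the list the first 2 shares were 12.3% and 11.9%, which turned their order; in each of the other settings tried the share at first starts was the higher, for example 22.2% of internal starts more than 5 kb in and 28.5% of the first starts of their genes. The share was higher farther into the gene: 15.8% (13.2 to 18.8%) of starts at 2 to 5 kb were bound, 21.6% (17.7 to 26.2%) at 10 to 20 kb and 28.3% (20.8 to 37.2%) of the 113 beyond 50 kb. Starts at 1 to 2 kb, at 18.1%, did not follow that order, and neighbouring bins overlapped in their intervals. The members' median signal was 150 at 2 to 5 kb, 286 at 10 to 20 kb and 262 beyond 50 kb.

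Counted by gene, 336 of the 1407 autosomal genes with an internal start (23.9%) held at least 1 member, the background against which each gene list below is read. Of these 336, 244 had 1 member, 69 had 2, 17 had 3 and 5 had 4, and Eip75B had 5. The genes with 4 were CAP, fru, shot, mtd and sif. In 235 of the 336 genes (69.9%, 64.8 to 74.6%) an internal start had a peak and the first start had none, and in the remaining 30.1% (25.4 to 35.2%) both had one. The 336 were chosen for a peak at an internal start. Over all 1407 genes the first start was bound in 23.6% (21.5 to 25.9%), so first starts were not bound less often in the 336. Only the outermost start was read as the first here; in 10 of the 235 genes another start within 1000 bp of it had a peak, and with these counted the share bound at both was 33.04% (28.2 to 38.2%).

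Of the genes bound at both, 77 (76.2%, 67.1 to 83.5%) had the higher signal at an internal start. The medians were 310 at the internal start and 138 at the first, and the median ratio was 1.97; since the highest of several internal starts was taken and some genes have more than 1, the choice favours the internal side. In the replicates' own ranked lists the internal start was the higher in 68 of 99 genes (68.7%) in replicate 1 and in 77 (76.2%) in replicate 2. The share was 61.6% when summits up to 1000 bp away were counted and 66.9% in the longer optimal list, and 71.2% when starts within 1000 bp of the first were counted with it.

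The genes tilted most to an internal start were apt, atl, CG7029, dpp, ftz-f1 and Eip74EF. apt had 2050 at the start of apt-RA, 16.2 kb in, and 146 at its first start, a ratio of 14.0; the replicates gave 727 against 60.5 and 1325 against 78.8. atl, which encodes the endoplasmic reticulum fusion GTPase atlastin, had 1787 and 129, a ratio of 13.9, with a start of another gene within 1000 bp of the summit. dpp encodes the BMP-type ligand that patterns the dorsal embryo. It had 1349 at the start of dpp-RE, 26.4 kb in, and 108 at its first start, a ratio of 12.5; the replicates gave 577 against 48.8 and 768 against 54.6. In apt and dpp the internal start was the higher in both replicates by a wide margin.

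The genes tilted most to the first start were CG5953, emp, pnt, Irk1, msi and brwl. CG5953 had 100.7 at its internal start and 2238 at its first, a ratio of 0.045, and in the replicates 52.2 against 919 and 46.6 against 1222. pnt, the Ets-domain activator of the EGFR pathway, had 171 at the stronger of 2 internal starts and 1686 at its first, a ratio of 0.10, and in the replicates 47.3 against 455 and 119 against 1237. Irk1, an inwardly rectifying potassium channel gene, had 277 and 1488, a ratio of 0.19. The Ets genes pnt and aop stood on opposite sides: aop, which represses targets that pnt activates, had its peak at an internal start with 1873 and none at its first start.

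**Figure D3:**
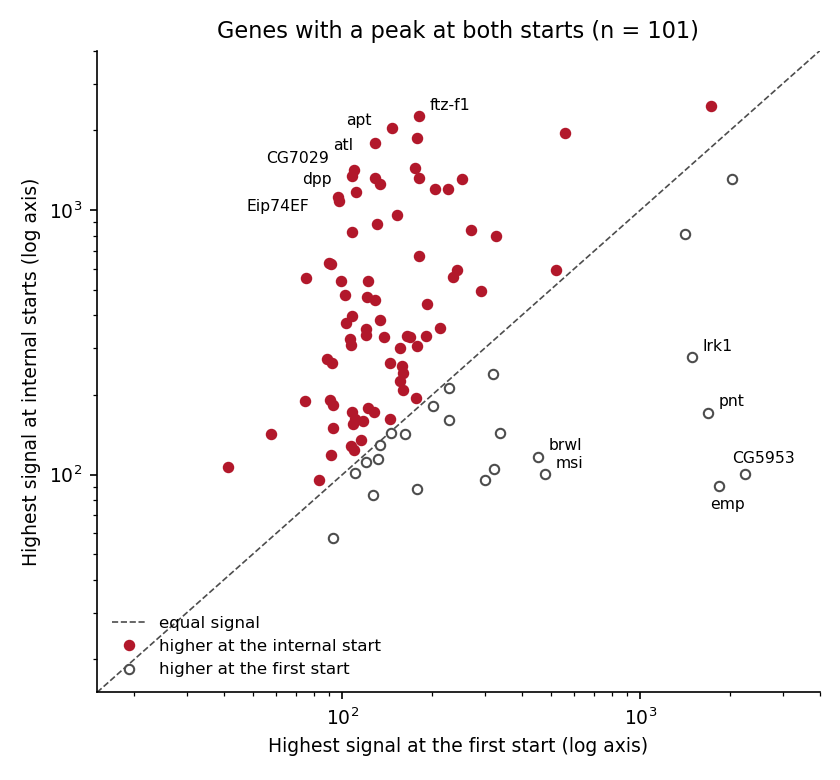
Highest signal at internal starts (vertical) against signal at the first start (horizontal), both on log axes, for the genes with a peak at both; the dashed line marks equal signal. Filled points, 77 genes, were higher at the internal start, open points at the first start, and the labelled genes are the 6 with the highest and the 6 with the lowest ratio, 14.0 for apt and 0.045 for CG5953 at the ends.

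Among 12 gene lists, ecdysone response and nuclear receptor genes had an internal start peak in 8 of the 14 that have an autosomal internal start (57.1%, 32.6 to 78.6%), beside 23.9% of all such genes. By start, 16 of 29 were bound, beside 19.5% of all. Here and in the lists below, a summit counts at every start within 500 bp of it. Counts in these lists are small, and genes with many starts have more places to hold a peak. The median was 3 starts in this list and 3 over all eligible genes. Equal medians do not mean equal places for a peak. The list had more internal starts per gene, with 29 in 14 genes, beside 2383 in all 1407 eligible genes. All 12 lists were chosen with earlier results of these data known, so no list share is independent evidence. Ecdysone is the steroid that times moulting and metamorphosis, and these genes encode its receptor, the early factors it induces and related receptors.

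Eip78C had a single member, of 2432 (733 in replicate 1 and 1697 in replicate 2), 66 bp upstream of the start of Eip78C-RB and 13.7 kb inside the gene, and no peak at the first start. At ftz-f1, which encodes a nuclear receptor needed for segmentation and for responses to later ecdysone pulses, the member of 2266 (712 in replicate 1 and 1563 in replicate 2) lay 35.6 kb in, at the start of ftz-f1-RC and ftz-f1-RD. Its first start, of ftz-f1-RB, had 181 (54.1 in replicate 1 and 132 in replicate 2). At Hr3 the member of 2163 (627 in replicate 1 and 1532 in replicate 2) lay 9.39 kb in, 57 bp upstream of the start of 3 transcripts, with a start of another gene within 1000 bp. Each of these 3 genes, picked for the height of its member, had its high signal at 1 internal start in both replicates.

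Eip75B, with 7 annotated starts over 102.9 kb, was bound at 5 of them. The strongest, 1878, lay 61 bp downstream of the start of Eip75B-RA at 93.3 kb; the starts at 102.9, 64.9 and 38.7 kb had highest signals of 428, 290 and 112, and the first start had 178. The 112 peak was in replicate 2's own list and not in replicate 1's, and the others were in both. The starts at 3.24 and 5.10 kb had no summit. Eip74EF, an Ets-domain gene, had peaks of 1122 (517 in replicate 1 and 601 in replicate 2) and 238 beside the close starts of Eip74EF-RB and Eip74EF-RD, 42.7 and 43.005 kb in, and 96.5 at the first start, which serves 3 transcripts. The summit of 1122 lay between those starts and cannot be given to 1 of them. The remaining 3 genes with a member were low: Hnf4 had 137, 123 and 83.6 at 3 internal starts, svp 122 and EcR, the ecdysone receptor gene, 99.2. Of the list's genes with an internal start but no member, Kr-h1 had 2623 at its first start, above every member in the list. ERR had 234, Blimp-1 196 and tai 132 at the first start, and Eip93F and eg had no peak at any start.

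**Figure D4:**
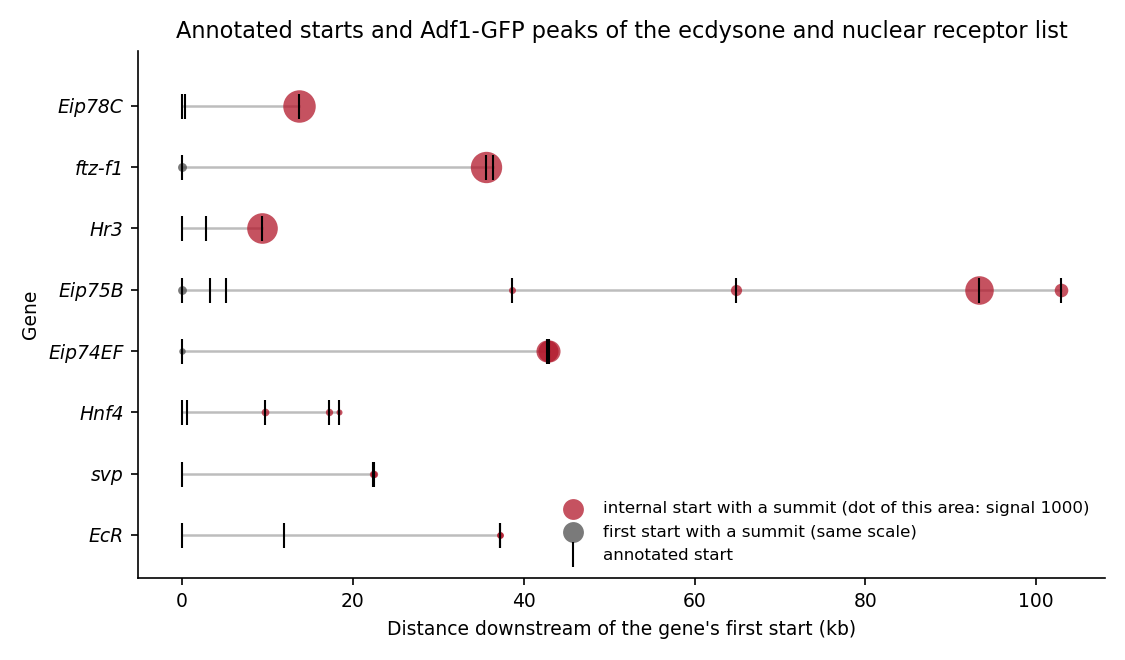
Annotated starts (black ticks) of the 8 ecdysone and nuclear receptor genes with an internal start peak, by distance downstream of the first start (horizontal, kb). Dots mark starts with a summit within 500 bp, red for internal and grey for first starts, with area proportional to the authors' signal. The largest dots, at Eip78C, ftz-f1, Hr3 and Eip75B, all stand at internal starts, with 2432, 2266, 2163 and 1878. Genes of the list without an internal start peak are not drawn, among them Kr-h1, with 2623 at its first start.

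The list of BTB and multi-isoform zinc-finger regulators had a member in 16 of 20 genes (80.0%, 58.4 to 91.9%) and at 29 of 53 starts. This list was also chosen with earlier results known, and by its name it takes multi-isoform genes, so the share is not independent evidence. The list also holds other DNA-binding families, and its genes with a member include D and Sox102F, which encode Sox proteins, and Mef2, kay, dl and FoxK, which encode MADS-box, bZIP, Rel and forkhead proteins, none of them BTB or zinc-finger. fru, which directs sex-specific behaviour through transcripts of its distal promoter, had 4 members and no peak at its first start. Its signals were 1785 at 106.8 kb (554 in replicate 1 and 1230 in replicate 2), 1006 at 98.3 kb, 932 at 95.3 kb and 86.2 at 64.9 kb. The repressor gene ttk had 1309 (434 in replicate 1 and 879 in replicate 2) at an internal start and 252 at its first. lola, an axon guidance regulator, had 846 at the start shared by 11 transcripts, 374 and 188 at its other internal starts, and none at its first. psq, which encodes a BTB protein that binds GAGA repeats, had 1006 (364 in replicate 1 and 639 in replicate 2). In all 4 genes the strongest peak was at an internal start, but they were picked as the list's genes with the highest signal there.

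Signalling genes of the Dpp, Wnt, Hedgehog, Notch and Hippo pathways had a member in 7 of 10 genes (70.0%, 39.7 to 89.2%) and at 10 of 20 starts. mam, the Notch coactivator mastermind, had 1774 (625 in replicate 1 and 1182 in replicate 2) 40.5 kb in and 292 at another internal start. shn, a zinc-finger cofactor of Dpp signalling, had 1569 (578 in replicate 1 and 1010 in replicate 2) 39.2 kb in. numb, an inhibitor of Notch, had 252 (92.4 in replicate 1 and 152 in replicate 2). Apart from dpp and pan, none of the 7 genes had a peak at its first start. EGFR, FGF, Ets and MAP kinase genes had members in 4 of 14 (28.6%): aop and pnt, described above, the FGF ligand gene ths with 194, and Egfr with 146.

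Kinase, phosphatase and small GTPase regulator genes had a member in 16 of 24 genes (66.7%, 46.7 to 82.0%), with 4 starts in the median gene, and at 22 of 70 starts (31.4%). Pdk1, a kinase of the insulin pathway, had 1319 (362 in replicate 1 and 944 in replicate 2) and 129 at its first start. The polarity kinase gene par-1 had 1270 (404 in replicate 1 and 868 in replicate 2), 11.3 kb in, and none at its first start. Pka-C3 had 889 and fray, a Ste20-like kinase gene, 840, likewise with none at the first start. RNA-binding and translational regulator genes had a member in 10 of 19 (52.6%), but at 11 of 52 starts (21.2%), near the share of all internal starts. Among them shep had 1258 and 1129 beside 1 start 93.1 kb in, and Fmr1, the fly homologue of the fragile X gene, 986 (383 in replicate 1 and 608 in replicate 2) at 1.78 kb. Fmr1 also had a stronger peak, of 2494, near its starts 513 and 898 bp from the first, which are too close to it to count as internal.

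Polycomb and trithorax group genes had a member in 4 of 8 (interval 21.5 to 78.5%) and at 7 of 12 starts (58.3%), beside 19.5% of all internal starts: Trl, the gene of GAGA factor, had 303 and 267 at 2 internal starts, and skd, kis and ash2 had highest signals of 181, 162 and 156. Actin cytoskeleton, muscle and junction genes had a member in 7 of 19 (36.8%, 19.1 to 59.0%) and at 23.1% of starts. Metabolism and transporter genes had one in 8 of 21 (38.1%) and at 22.6% of starts. For homeobox and segmentation genes it was 6 of 17 (35.3%) and 24.1% of starts. Beside these stand 23.9% of all such genes and 19.5% of all internal starts. In the actin list shot, the spectraplakin gene, held 4 members, the highest 1079, and 97.5 at its first start. Ald1, the glycolytic aldolase gene, had 1310 at its internal start and 2031 at its first. The homeobox list was led by Pdp1, which is a bZIP and not a homeobox gene, with 837, and by hth with 696 and eya, which encodes a coactivator phosphatase, with 671. Axon guidance and cell adhesion genes had a member in 4 of 15 (26.7%), led by Sema1a with 172, and ion channel and synaptic genes in 2 of 15 (13.3%, 3.74 to 37.9%), cpx and Irk1. Antp, known for its pair of promoters, had no internal start peak, with 3 annotated starts, and the second start of Adh lies 715 bp from its first and so could not give a member.

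Around the summit, up to 50 bp on either side, windows were richer in G and C at internal start peaks than at first-start peaks, with a median GC content of 52.5% against 45.5%; windows at internal starts with no summit within 1000 bp had 43.6%, and those of all autosomal first starts 36.6%, both taken 92 bp upstream of the start. The part that base composition plays in the motif counts below was not tested. Among 6-base words in at least 10% of the summit windows, the 10 with the highest ratio to flanking windows, centred 500 bp to each side, all held CG and largely overlapped one another. GACGTC led, counted on both strands like the rest. This word, its own reverse complement, was in 12.9% of the internal start windows, 4.36% of first-start windows and 0.764% of the flanks. CGTCGC was the most frequent of the 10, in 22.5% of internal start windows, 10.6% of first-start windows and 2.84% of the flanks.

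The word TCGNNNTCG, which was chosen after those 6-base words were seen, was in 110 of 458 internal start windows (24.0%, 20.3 to 28.1%) and 178 of 1582 first-start windows (11.3%, 9.79 to 12.9%). That choice was made on the internal start windows and so favours them over first-start windows. TCGNNNTCG was in 5.68% of the internal start flanks, 7.79% of internal starts without a summit within 1000 bp and 5.35% of all autosomal first starts. The row of 3 triplets was in 102 internal start windows (22.3%, 18.7 to 26.3%) and 216 first-start windows (13.7%, 12.05 to 15.4%), beside 4.69% of the flanks, 4.45% of unbound internal starts and 3.29% of all first starts. These motifs can share bases, and 43 internal start windows held both and 169 (36.9%, 32.6 to 41.4%) at least 1; at first starts 322 (20.4%, 18.4 to 22.4%) held at least 1. Where neither word occurred, that says only that these letters are not in the window.

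Both words were more frequent at strong members than at weak ones. Among the 114 members with the highest signal, 55 (48.2%, 39.3 to 57.3%) held the triplet row and 43.0% TCGNNNTCG, against 9 (7.89%, 4.21 to 14.3%) and 13.2% among the 114 with the lowest. First-start peaks showed the same order at lower shares: 29.4% and 19.5% in their 395 strongest, 6.58% and 8.86% in their 395 weakest. Examples stand in the printed windows: Eip78C and fru held both words and rdx TCGNNNTCG, while atl, at 1787, held neither and had a GC content of 47.5%.

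GAGAG, the core of GAGA factor sites, did not follow that order at autosomal internal start peaks. It was in 132 internal start windows (28.8%, 24.9 to 33.1%) and 16.9% of first-start windows, but also in 24.4% of internal starts without a summit, and in 15.1% of the flanks. Its share was 23.7% among the 114 strongest members and 29.8% among the 114 weakest, with intervals that overlapped. Tet and ftz-f1 were among the strong members that held it. TATCGATA, the DREF site, was in 3 internal start windows (0.655%, 0.223 to 1.91%) and 54 first-start windows (3.41%, 2.63 to 4.43%), with 0.503% of all autosomal internal starts and 2.65% of all first starts holding it.

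Core promoter words were counted at the start itself. TCAGT, within 5 bp of the start on the gene's strand, was at 90 of the 403 internal start sites with a member (22.3%, 18.5 to 26.6%) and at 11.4% of 1476 first starts with a peak. Over all autosomal starts, with or without a peak, it was at 14.4% of internal and 7.68% of first starts. TATAAA 20 to 40 bp upstream was at 7 internal start sites (1.74%, 0.844 to 3.54%) and 46 first starts with a peak (3.12%, 2.34 to 4.13%), and at 3.61% of all internal and 7.49% of all first starts. Bound or not, internal starts held TCAGT more often and TATAAA less often than first starts in these counts.

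**Figure D5:**
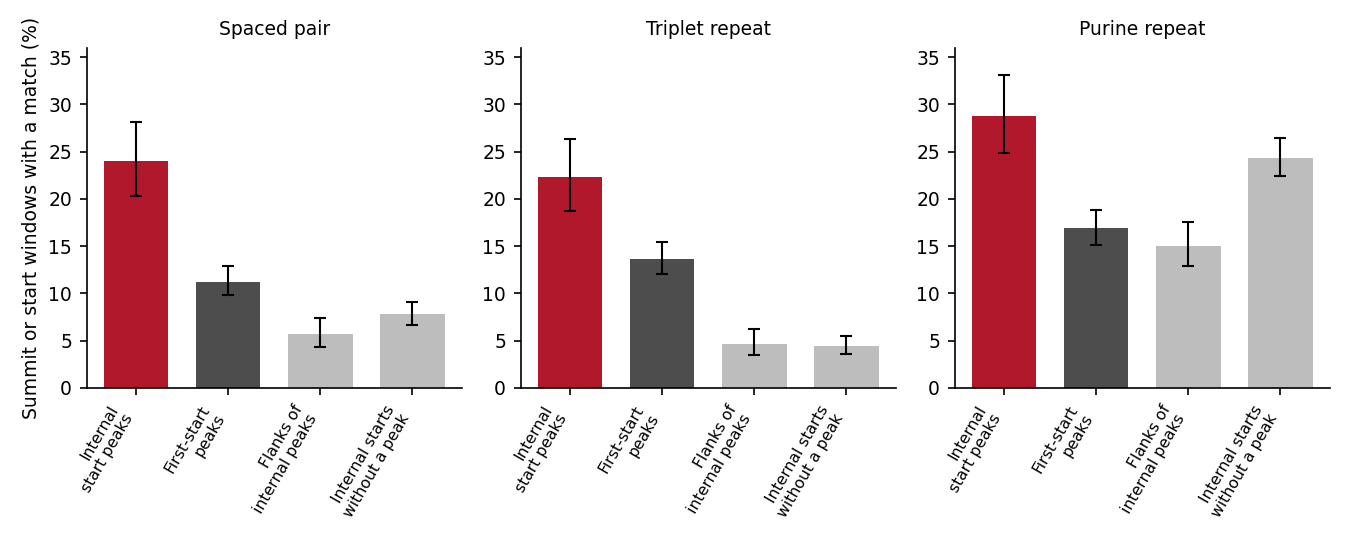
Share of windows of 50 bp either side with a match (vertical, percent; bars are Wilson 95% intervals for counting error) for TCGNNNTCG (left), the row of 3 triplets (middle) and GAGAG (right). Each panel gives internal start peaks, first-start peaks, flanks 500 bp from the internal start summits, and internal starts with no summit within 1000 bp. The first 2 motifs stand at 24.0% and 22.3% in internal start peaks and under 8% in both backgrounds, GAGAG at 28.8% and 24.4% in internal starts with and without a peak. TCGNNNTCG was chosen after words frequent in these summit windows relative to these flanks were seen, so its excess over the flanks follows from that choice. The choice also favours internal start peaks over first-start peaks.

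Across the autosomes the members were spread over 2L with 94, 2R with 128, 3L with 111, 3R with 123 and chromosome 4 with 2. They made up 22.5% of all autosomal promoter summits (458 of 2040, 20.7 to 24.3%), and between 20.3% on 2L and 25.5% on 2R, with overlapping intervals. On the X chromosome, chosen by the same rule, 161 of 504 promoter summits (31.9%, 28.0 to 36.1%) were at internal starts, of 104 genes. How many annotated X starts are internal was not counted. These shares therefore cannot tell whether internal starts were bound more often on the X chromosome. The autosomal and X internal start peaks had medians of 189 and 185, GC contents of 52.5% and 52.5%, and shares upstream of 77.5% and 72.0%. The triplet row was in 22.3% of autosomal and 32.3% (25.6 to 39.9%) of X windows, and TCGNNNTCG in 24.0% and 32.9% (26.1 to 40.5%). A start of another gene lay within 1000 bp of 42 autosomal members (9.17%), against 656 first-start peaks (41.5%).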

How the data were processed

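The measurements were ChIP-seq peak lists of 2 biological replicates of Adf1-GFP embryos on dm6 (Release 6). The aligner and the peak caller were not given in the sources used here. The deposited signal came from the authors' peak caller, the deposited score is the authors' scaled irreproducible discovery rate and was only copied, and the summit offset is theirs too. No read counts were used, so depth is unknown, and the Wilson intervals hold counting error only. Nothing in the labels says how separate the replicate collections were. The main list was the conservative one, called across both replicates, of 4370 summits; the alternatives included the optimal list of 5607 and each replicate's own list. A replicate's signal is that of the overlapping peak with the nearest summit in its own ranked list.

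Starts were the 5′ ends of all transcripts of 13968 protein-coding genes in Ensembl release 115 of BDGP6, 19275 distinct starts in all. Exons and coding starts came from the same annotation, and sequence from the RefSeq assembly of Release 6. Motifs were counted on both strands within 50 bp of the summit. Flanks were as wide and centred 500 bp away on either side, and windows at starts without a summit were centred 92 bp upstream. The members and the gene lists (549 symbols in 12 lists, 24 of them without a match) were chosen with earlier results of these data known, so no list count is independent evidence, and no test was run. Genes were named by rule: those of the 12 strongest members, up to 4 per list, genes with 3 or more members, the 6 highest and 6 lowest ratios, the 3 farthest peaks, and Adh and Antp. Not every gene so named is printed, and svp, EcR, pan, Kr-h1, ERR, Blimp-1, tai, Eip93F and eg were named after their values were seen. Assignment and motif counting were tested on simulated positions and windows. Versions were Python 3.11.15 with NumPy 2.4.6, and SciPy 1.17.1, while figures used Matplotlib 3.10.9.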

Additional observations from a re-analysis of the deposited data

How the results depend on the processing

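The number of internal start peaks stayed within 1.5 times of 458 except where the rule itself was narrowed: 277 when the start had to lie more than 5 kb in, and 278 when only summits above the median signal counted; with 1 replicate's own list it was 335 to 638. The share of internal starts bound, 19.5%, was 16.2% with summits within 250 bp, 24.6% within 1000 bp, 22.2% for starts more than 5 kb in, 24.9% in the optimal list, 12.3% above the median signal and 14.8 to 26.5% with 1 replicate's own list. The share of genes also bound at the first start, 30.1%, was 22.6% within 250 bp, 41.4% within 1000 bp, 36.01% in the optimal list, 16.7% above the median signal and 20.2 to 37.9% with 1 replicate. Summits upstream of the start, 77.5%, made up 83.5% above the median signal and 74.0 to 81.2% with 1 replicate. Windows with the triplet row, 22.3%, made up 32.4% above the median signal, 14.4% with windows of 25 bp and 30.1% with windows of 100 bp either side, and 20.1 to 26.9% with 1 replicate. The cause of these shifts was not tested, beyond the fewer or more summits and bases that each setting counts.

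In each setting compared, which for TCGNNNTCG were added after seeing the data, the share upstream, the median signal and the shares of windows with the triplet row, TCGNNNTCG and GAGAG were higher at internal start peaks than at first-start peaks; for the triplet row the smallest difference was between 14.4% and 7.59%, in windows of 25 bp either side. TCGNNNTCG was chosen after words frequent in the internal start windows were seen, which favours its share there in every setting. Of 111 recomputed values 63 lay within 1.5 times of the main count or inside the interval of the main value, and 48 did not. Counting 1 summit per internal start, or only summits with no start of another gene within 1000 bp, both chosen after seeing the data, gave 24.1% and 23.6% for the triplet row. Taking protein-coding transcripts alone changed nothing, because all 30773 transcripts of these genes are annotated so. No paired analysis was possible because there is 1 group. Depth, the fragment length and the mixed ages of the embryos limit how finely a summit can be assigned to 1 of several close starts.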
